A study of Homo sapiens with 6 samples.

Results

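The insulin-like growth factor (IGF) axis was followed through 10 genes in a breast tumour cell line: the binding proteins IGFBP2, IGFBP3, IGFBP4, IGFBP5, IGFBP6 and IGFBP7, the receptors IGF1R and IGF2R, and the insulin receptor substrates IRS1 and IRS2. These 10 genes, of 19775 measured, were read by 27 of 54613 probe sets, and each of the 27 names a single gene. The genes were chosen by family membership with the expression difference described here already known, so their differences are a description and support nothing by themselves. MDA-MB-436, an established triple-negative breast tumour line of mesenchymal type, was profiled on 6 Affymetrix arrays. On 3 arrays the cells were NF1-C2S transfected, which the sample records call overexpressing, and the series record speaks of stable transfection with an NF1-C2 expression plasmid (nuclear factor I-C, a transcription factor). The other 3 arrays hold untransfected wild type cells. All cells grew in RPMI medium with 5 μg/ml insulin and 10% serum, so both groups had an added ligand of the insulin receptor. No empty-plasmid cells are named. The sources used here do not state the driving promoter of the plasmid, nor whether 1 clone or a pool was used.

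IGF1 and IGF2 are small secreted growth factors. They act through IGF1R, a receptor tyrosine kinase, which recruits and phosphorylates the docking proteins IRS1 and IRS2 and so engages PI3-kinase and AKT. IGF2R, the cation-independent mannose 6-phosphate receptor, has no kinase. It takes IGF2 to lysosomes and sorts lysosomal enzymes. The secreted binding proteins hold most IGF in tissue fluid, either keeping it from the receptor or releasing it near the cell when proteases cut them, and IGFBP7 binds IGF only weakly.

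Values are deposited log2 expression values, on which a step of 1 is a doubling, and a change is transfected minus wild type with its standard error (SE). A gene was represented by its brightest probe set, and a call means an adjusted p under 0.05 from limma over all genes. Where every array of a group read below its own array median, a fold is given as a lower limit, with that median standing in for the dim values. Array medians were 4.8 to 4.85. The labels do not say whether the 3 arrays of a group came from separate cultures, so the spread may be technical. Correlations between arrays were 0.992 to 0.997 within the transfected group, 0.996 within the wild type group and 0.971 to 0.976 between groups. NFIC, the gene of the named factor, averaged 8.25 ± 0.04 on arrays labelled transfected and 8.47 ± 0.06 on wild type arrays (SD, n = 3 each). That change of -0.22 was called lower (limma adjusted p = 0.047), against the overexpression that the records name. The call ended with the replicate block (adjusted p = 0.0529) and on leaving out any 1 of the 6 arrays (0.0595 to 0.133), and none of the 4 NFIC probe sets was called over probe sets (changes of -0.51 to 0.22). The sources used here do not state whether they read the plasmid's transcript. The arrays are therefore named below by their labels, and every direction rests on those labels. Of the related factor NFIX, the brightest probe set averaged 8.34 ± 0.04 on arrays labelled transfected and 9.41 ± 0.07 on wild type arrays, while another averaged 11.53 ± 0.21 and 4.79 ± 0.38. Of 6 epithelial markers KRT18 and KRT7 were called lower (-0.93 and -0.98), KRT8 and EPCAM were not called (0.05 and -0.75), and KRT19 and CDH1 lay below the array median on all 6 arrays. The mesenchymal markers VIM and ZEB1, at 13.01 and 8.21 in cells labelled transfected, against 13.54 and 8.62 in wild type cells, were both called lower (limma adjusted p = 0.000644 and 0.0105). KRT5, KRT14, ESR1, PGR and ERBB2 were not called. None of 11 measured markers of leukocytes, endothelium, fibroblasts and adipocytes passed the test (changes of -0.26 to 0.2), and 6 of them lay below the array median on all 6 arrays.

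Upstream sequence was read because the transfected factor belongs to the nuclear factor I family, which binds DNA at TTGGCA and related motifs. RefSeq promoter windows (GRCh38.p14) were matched by symbol for 9 of the 10 genes, in 11 windows, and the 250 bases before the start were searched on both strands. A match was found in 1 of the 11 windows, that of IGFBP5, at position -106 counted back from the start. At least 1 match stands in 10.8% of all 35116 windows. The palindrome of TTGGC and its reverse complement spaced by 5 bases was in none of the 11, and in 0.0285% of all windows. The upstream sequences of IGFBP3 and IRS1 are shown because these genes were among those called lower, and that of IGFBP5, which was not called, because it holds the match, marked in capitals. These are matches of letters and say nothing of whether the factor binds there.
IGFBP3 upstream, chr7:45921273-45921522, minus strand: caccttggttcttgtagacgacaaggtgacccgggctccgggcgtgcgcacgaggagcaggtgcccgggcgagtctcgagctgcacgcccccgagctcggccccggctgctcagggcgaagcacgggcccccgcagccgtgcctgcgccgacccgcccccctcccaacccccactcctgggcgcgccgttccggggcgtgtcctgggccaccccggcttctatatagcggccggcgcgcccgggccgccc
IRS1 upstream, chr2:226799821-226800070, minus strand: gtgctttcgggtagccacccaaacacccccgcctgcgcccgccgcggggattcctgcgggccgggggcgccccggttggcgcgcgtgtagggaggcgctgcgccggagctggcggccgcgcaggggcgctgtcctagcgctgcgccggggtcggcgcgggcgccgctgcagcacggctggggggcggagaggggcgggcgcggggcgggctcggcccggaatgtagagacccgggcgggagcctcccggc
IGFBP5 upstream, chr2:216695550-216695799, minus strand: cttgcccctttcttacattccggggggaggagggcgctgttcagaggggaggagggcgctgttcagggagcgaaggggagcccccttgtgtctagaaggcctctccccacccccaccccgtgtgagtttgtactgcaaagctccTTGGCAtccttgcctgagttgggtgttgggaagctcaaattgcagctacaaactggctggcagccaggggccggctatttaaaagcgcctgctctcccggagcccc

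Across the 10 genes, 7 were called lower in cells labelled transfected, none was called higher, and 3 (IGFBP5, IGFBP6 and IGF2R) were not called. The median change was -0.97, beside 0.0 over all genes. Of all 19775 genes 31.9% were called in either direction and 16.9% lower, and since this same difference was in view when the 10 were picked, nothing is read from the excess. In each of the 7 called genes, and in IGF2R, the arrays of the 2 groups did not overlap, while in IGFBP5 and IGFBP6 they did. Over all genes, called or not, the groups did not overlap in 43.0%. Among the 27 probe sets 14 were called lower and 1 higher, while 11.4% and 10.8% of all probe sets were called lower and higher. In RNA of a whole culture, less RNA per cell and fewer expressing cells cannot be told apart.

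**Figure D1:**
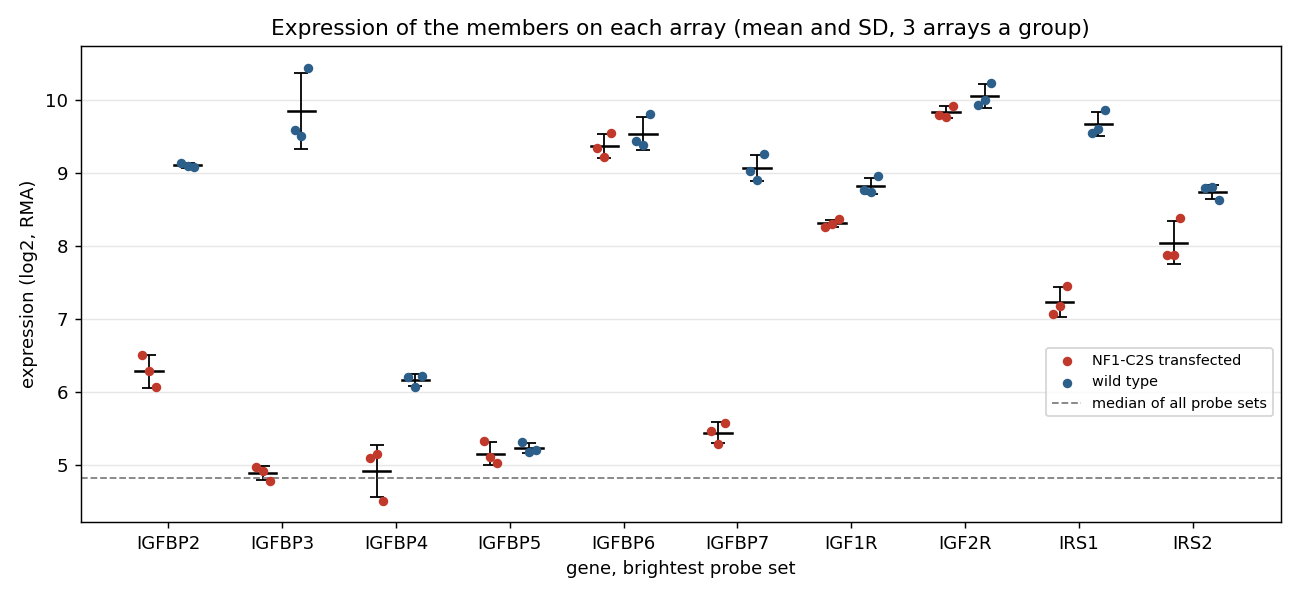
Expression of the 10 genes on each array (log2, vertical axis) by gene (horizontal axis, brightest probe set), with arrays labelled transfected in red left of wild type arrays in blue. Bars are the mean and SD of 3 arrays, and the dashed line is the median of all values, 4.82. IGFBP2, IGFBP3, IGFBP7 and IRS1 have the widest gaps between groups, and IGFBP5 and IGFBP6 overlap.

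The 3 widest differences were those of binding proteins, and 4 of the 6 were called lower, beside 16.9% of all genes. IGFBP3, the main carrier of IGF in blood and a growth inhibitor in many cultured cells, read 4.97, 4.91 and 4.78 on the arrays labelled transfected, against 9.59, 9.50 and 10.44 on the wild type arrays. The arrays labelled transfected sat at about the array median and the wild type arrays far above it, with wild type replicate 3 the highest. The change was -4.96 (SE 0.23), a 31.1-fold lower level, and it was -4.66 without wild type replicate 3. The other IGFBP3 probe set, 212143_s_at, moved the same way, with a change of -3.82 (SE 0.24). It read 4.57, 5.03 and 5.03 on arrays labelled transfected, against 8.37, 8.47 and 9.25 on wild type arrays, so that wild type replicate 3 was again the highest.

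IGFBP7, a secreted protein of vessel walls and stroma that is silenced in some breast tumours, was read by 3 probe sets that gave different sizes. The brightest, 201162_at, read 5.46, 5.29 and 5.57 in cells labelled transfected, against 9.03, 8.90 and 9.25 in wild type cells. That is a change of -3.62 (SE 0.11), 12.3-fold lower, with the transfected values still above the array median. On 201163_s_at the arrays labelled transfected were well below the array median, at 3.21, 3.32 and 3.25, against 9.23, 9.13 and 9.69 on wild type arrays. The measured change there was -6.09 (SE 0.14), or at least 23.1-fold lower when the array median stands in for the dim values. The third, 213910_at, lay between 2.82 and 3.19 on all 6 arrays and told nothing apart (change -0.07, SE 0.11). The brightest probe set therefore gives the smaller change of the pair that rose above the array median in wild type cells.

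IGFBP2, a binding protein with an integrin-binding motif that is abundant in fetal tissue, had 1 probe set. It read 6.51, 6.28 and 6.06 in cells labelled transfected, against 9.14, 9.09 and 9.08 in wild type cells, a change of -2.82 (SE 0.11) or 7.07-fold lower. Wild type arrays lay close together, and the arrays labelled transfected were more spread but far below them. IGFBP4, an inhibitor of IGF action that the protease PAPPA cleaves, read 5.09, 5.15 and 4.51 in cells labelled transfected, against 6.20, 6.07 and 6.21 in wild type cells. Its change was smaller, at -1.24 (SE 0.17), 2.37-fold lower, and transfected replicate 3 alone fell below its array median.

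IGFBP5 and IGFBP6 were not called. IGFBP5, the binding protein of bone matrix and of the involuting rodent mammary gland, stands next to IGFBP2 on chromosome 2. Its brightest probe set read 5.33, 5.11 and 5.02 in cells labelled transfected, against 5.31, 5.18 and 5.20 in wild type cells. All 6 IGFBP5 probe sets gave changes between -0.16 and -0.03 with overlapping groups, and 4 of them lay below the array median on all 6 arrays. IGFBP6, which prefers IGF2 as ligand, lay well above the array median in both groups, at 9.34, 9.21 and 9.54 in cells labelled transfected, against 9.43, 9.38 and 9.80 in wild type cells. Its groups overlapped, and the change of -0.17 had an SE of 0.14.

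**Figure D2:**
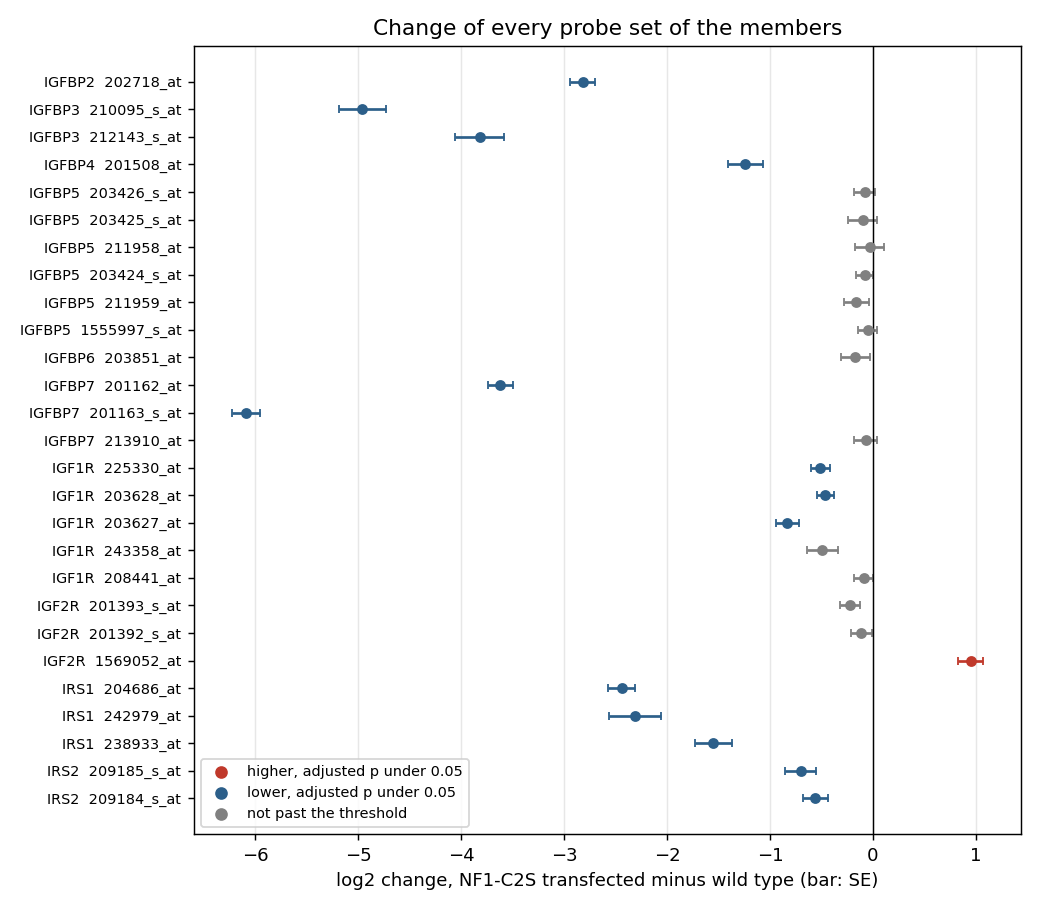
Change of each of the 27 probe sets (horizontal axis, log2, transfected minus wild type, bar = SE) by gene and probe set (vertical axis). Colours mark calls over all probe sets: blue for the 14 lower, red for the 1 higher (1569052_at of IGF2R) and grey for the 12 not called.

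Among the receptors IGF1R was called lower, by less than the 4 called binding proteins. Its brightest probe set, 225330_at, read 8.26, 8.30 and 8.36 in cells labelled transfected, against 8.77, 8.74 and 8.95 in wild type cells, a change of -0.51 (SE 0.08) or 1.43-fold lower. Of the other IGF1R probe sets, 203628_at gave -0.46 (SE 0.08) and 203627_at gave -0.83 (SE 0.11), both called lower. A dimmer one, 243358_at, gave a similar -0.49 (SE 0.15) without passing the threshold over probe sets (limma adjusted p = 0.052, but 0.0341 with the replicate block and 0.00312 without transfected replicate 2). The last, 208441_at, below the array median on all 6 arrays, gave -0.09. The 3 bright IGF1R probe sets thus moved one way, with no overlap between groups.

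IGF2R did not have 1 direction. Its brightest probe set, 201393_s_at, read 9.79, 9.77 and 9.92 in cells labelled transfected, against 9.93, 9.99 and 10.23 in wild type cells. These groups only just did not overlap, and the change of -0.22 (SE 0.10) was not called. On 201392_s_at the groups overlapped and the change was -0.11 (SE 0.10). The remaining probe set, 1569052_at, read higher in cells labelled transfected, at 5.03, 4.84 and 4.62, against 3.79, 3.81 and 4.03 in wild type cells. That change, 0.95 (SE 0.12), was the only call upward among the 27, between transfected values near the array median and wild type values below it, and no fold is given for it. The mean over the 3 IGF2R probe sets was 0.21 higher and was not called. The sources used here do not state which transcript 1569052_at reads.

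**Figure D3:**
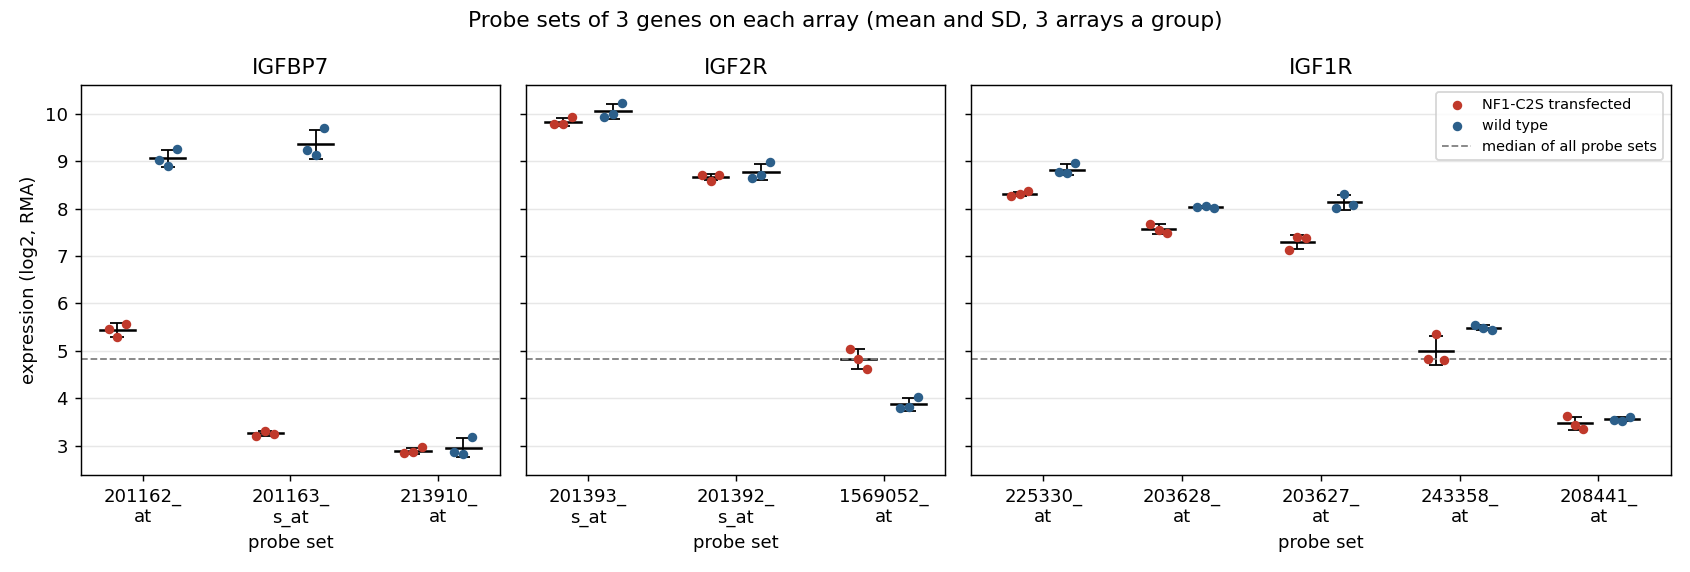
Expression on each array (log2, vertical axis) for every probe set (horizontal axis) of IGFBP7, IGF2R and IGF1R, transfected in red left of wild type in blue, with the mean and SD of 3 arrays and the median of all values dashed. The IGFBP7 probe sets differ in the size of the gap, and 1569052_at of IGF2R goes the opposite way from the brighter pair.

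Both insulin receptor substrates were called lower. IRS1, the docking protein through which IGF1R and the insulin receptor reach PI3-kinase, read 7.06, 7.18 and 7.45 in cells labelled transfected, against 9.55, 9.60 and 9.86 in wild type cells. The change was -2.44 (SE 0.13), 5.43-fold lower. Its dimmer probe sets moved alike, 242979_at by -2.31 (SE 0.25) and 238933_at by -1.55 (SE 0.18), each without overlap between groups. IRS2, the related docking protein tied to cell motility in mouse mammary tumours, changed less. It read 7.88, 7.87 and 8.38 in cells labelled transfected, against 8.79, 8.80 and 8.63 in wild type cells, a change of -0.70 (SE 0.14) or 1.62-fold lower, and transfected replicate 3 came closest to the wild type arrays. The other IRS2 probe set gave -0.56 (SE 0.12).

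Wild type replicate 3 stood out among these genes. It was the highest wild type array in 17 of the 27 probe sets (63.0%), beside 31.8% of all probe sets. In 13 of the 27 (48.1%), beside 11.6% of all, its deposited value carries more than 2 decimals, unlike the other arrays. Over the 27 probe sets its median difference from the mean of wild type replicates 1 and 2 was 0.195. Over all 6354 probe sets with more than 2 decimals that median difference was 0.001. Without that array all 7 genes were still called lower.

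The rest of the axis was taken from a list of 95 other genes of IGF supply, signalling and IGF2R cargo, of which 88 had a probe set naming them alone. Of these 18 were called higher and 20 lower, beside 15.0% higher and 16.9% lower over all genes, and the median change was -0.0044. No measured ligand or insulin receptor gene was called. IGF1 averaged 5.59 ± 0.39 in cells labelled transfected and 5.58 ± 0.05 in wild type cells (SD, n = 3 each; change 0.01, SE 0.18), and the insulin receptor INSR averaged 6.32 ± 0.28 and 6.26 ± 0.12 (change 0.06, SE 0.14). Insulin itself (INS) and IGFBP1, the binding protein next to IGFBP3 on chromosome 7, read below the array median on all 6 arrays, with changes of -0.10 and -0.03. IGF2 had no probe set naming it alone and was not analysed here. The further binding-protein relative IGFBPL1 changed by -0.29 (limma adjusted p = 0.0396), a call that ended with the replicate block (adjusted p = 0.0541), when _x_at and _s_at identifiers were left out (0.0512), and without transfected replicate 2 or 3 or wild type replicate 1 or 3 (adjusted p = 0.0891, 0.115, 0.111 and 0.119).

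Among 6 genes of proteases that cut binding proteins and of inhibitors of those proteases, 1 was called lower and 2 higher. Those calls stand beside 16.9% lower and 15.0% higher over all genes. ADAM12, a metalloprotease that cleaves IGFBP3 and IGFBP5, read 4.03, 4.80 and 4.01 in cells labelled transfected, against 7.44, 7.73 and 7.76 in wild type cells. That is at least 7.07-fold lower (change -3.36, SE 0.22, limma adjusted p = 3.48e-05; -1.51 averaged over its probe sets). The stanniocalcins, glycoproteins that inhibit PAPPA, were both higher. STC1 read 9.70, 9.35 and 9.52 in cells labelled transfected, against 8.07, 7.97 and 8.72 in wild type cells (change 1.27, SE 0.20, limma adjusted p = 0.00213). STC2 read 9.00, 8.91 and 9.13, against 7.82, 7.71 and 8.08 in wild type cells (change 1.14, SE 0.11, limma adjusted p = 0.000212). PAPPA itself, named after its values were seen, averaged 6.99 ± 0.29 and 6.34 ± 0.49 in cells labelled transfected and in wild type cells (SD, n = 3 each), with overlapping groups (change 0.65, limma adjusted p = 0.0932).

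Of 12 other proteins that carry the IGFBP domain without being classical IGF carriers, 5 were called lower and 3 higher. Over all genes 16.9% were called lower and 15.0% higher. CCN4, a Wnt-induced matricellular protein, was at least 2.89-fold lower (change -2.50, SE 0.22, limma adjusted p = 0.000143), and its relative CCN3 changed by -1.65 (SE 0.21, adjusted p = 0.000692). The CCN relatives did not share a direction. CCN1 and CCN2, named after their values were seen, were called higher, by 1.29 and 0.91 (limma adjusted p = 0.00327 and 0.00838). CCN5 and CCN6 were not called (0.10 and -0.18). ESM1, the endothelial proteoglycan endocan, was 3.15-fold higher, at 7.12, 7.17 and 7.60 in cells labelled transfected, against 5.71, 6.17 and 5.04 in wild type cells (limma adjusted p = 0.00275). HTRA1, a serine protease able to degrade IGFBP5, was named after its values were seen, and its change was -1.51 (SE 0.11, limma adjusted p = 5.66e-05).

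Around the receptors and substrates, calls went both ways. Among 20 adaptors and receptor-proximal regulators, 5 were called higher and 6 lower, beside 15.0% and 16.9% over all genes. SOCS1, a feedback inhibitor of cytokine and insulin signalling, was higher by 1.14 (SE 0.15, limma adjusted p = 0.000995; 0.42 averaged over its probe sets). DOK1, a docking protein that restrains tyrosine kinases, was higher by 0.82 (adjusted p = 0.000302), and SOCS2, a brake on growth hormone signalling, changed by -1.05 (adjusted p = 0.011). In the mannose 6-phosphate group 1 of 12 was called higher and 3 lower, beside the same shares over all genes. M6PR, the cation-dependent partner of IGF2R, changed by -0.55 (SE 0.07, limma adjusted p = 0.000794), and the sorting adaptor GGA3 by -0.93 (adjusted p = 0.000252; -0.60 averaged over its probe sets). PLAUR, the urokinase receptor, which can bind IGF2R, was higher by 1.00 (adjusted p = 3.76e-05; 0.51 on its probe set not ending in _x_at or _s_at).

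Downstream, 2 of 16 PI3-kinase and AKT genes were called higher and 3 lower, beside 15.0% and 16.9% over all genes. FOXO3, a transcription factor that AKT keeps out of the nucleus, read 10.76, 10.74 and 10.85 in cells labelled transfected, against 9.88, 9.89 and 9.89 in wild type cells (change 0.90, SE 0.07, limma adjusted p = 5.78e-05). PIK3R3, a regulatory subunit of PI3-kinase, changed by -1.03 (SE 0.18, adjusted p = 0.00319; -0.55 averaged over its probe sets). PHLPP2, a phosphatase that acts on AKT, was higher by 0.31 (limma adjusted p = 0.0492), a call that ended with the replicate block (adjusted p = 0.0841), averaged over its probe sets (0.16) and without transfected replicate 1 or 3 or wild type replicate 1 or 3 (0.0933, 0.147, 0.121 and 0.149). The mTOR branch had 4 of 12 genes called higher and 1 lower, beside 15.0% and 16.9% over all genes. DEPTOR, an inhibitory partner of mTOR, was at least 2.97-fold lower (change -1.90, SE 0.18, limma adjusted p = 0.000171; -0.97 averaged over its probe sets). RHEB, the activator of mTOR complex 1, was higher by 0.50 and the S6 kinase RPS6KB2 by 0.43. Of the 3 IGF2 mRNA binding proteins, IGF2BP2 alone was called, beside 15.0% of all genes called higher. It was higher by 0.85 (SE 0.12, limma adjusted p = 0.0012, and 0.51 averaged over its probe sets).

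**Figure D4:**
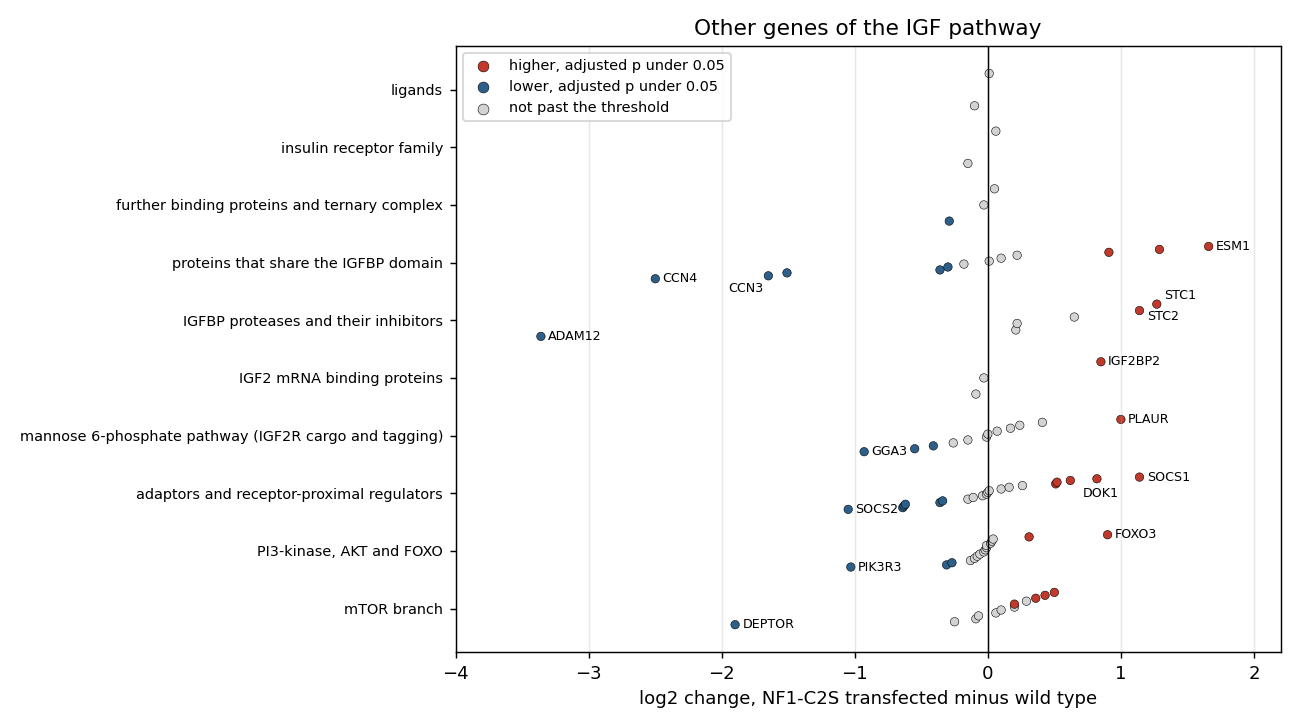
Change of 88 other IGF pathway genes (horizontal axis, log2, transfected minus wild type) by group (vertical axis), 1 point a gene, red for the 18 called higher, blue for the 20 called lower and grey for the rest. Called genes named by rule with changes past 0.8 are labelled, from ADAM12 at -3.36 to ESM1 at 1.66. The ligands IGF1 and INS and the insulin receptors lie near 0.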

How the data were processed

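Total RNA of 6 MDA-MB-436 samples (3 NF1-C2S transfected, 3 wild type) was labelled with biotin and hybridized to Affymetrix arrays. The deposited values are log2 expression values with 1 column an array, made by the authors with RMA per the submitters' processing notes; the sources used here state neither its version nor which arrays were normalized together. RMA corrects background, brings arrays to a common distribution and compresses differences among dim probe sets. Scanner files were not used here, so the background correction was not repeated. Arrays have no read depth, and their number limits the precision.

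Of 54675 probe sets, 62 controls were left out. The platform annotation gave 41091 probe sets 1 gene, 1801 several and 11721 none, and 41037 were matched to RefSeq gene names by gene identifier. A gene was read by its brightest probe set among those naming it alone. Groups came from the sample titles and were compared with limma 3.58.1 in R 4.3.3 (two-sided, Benjamini-Hochberg over all 19775 genes, and in a second fit over all 54613 probe sets; threshold 0.05). In simulated data on 19775 genes, 99 of 100 genes changed by 2 and 90 of 100 changed by 1 (log2) were recovered, with 7 false calls. The simulation changed only those genes and drew noise independently for each array. In the data 31.9% of genes were called and same-numbered arrays of replicates 1 and 2 deviated together, so these rates need not hold here. Deviations of same-numbered arrays had correlations of 0.398, 0.238 and 0.140 for replicates 1, 2 and 3, and the other pairs ran from -0.277 to 0.142. Transfected replicate 3 went as closely with wild type replicate 2 (0.142) as with wild type replicate 3. Pairing by number was thus not seen for replicate 3. All same-numbered correlations being over 0.1, the replicate block is given where it changes a call. Members, pathway list and the naming rule were chosen with earlier results of these data known. The rule names all 10 members, NFIC and NFIX, IGF1, IGF2, INS, INSR and IGFBP1, and up to 3 genes of each pathway group with the largest changes among those called whose groups do not overlap. Alternatives were quantile normalization, median centring, a trend and robust prior, array weights, leaving out dim probe sets, the replicate block, other choices of probe set, and leaving out each array. Protein sequences were not used here.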

Additional observations from a re-analysis of the deposited data

How the results depend on the processing

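All 7 calls among the members held under every alternative run, with changes of -5.13 to -4.39 for IGFBP3, -3.70 to -3.26 for IGFBP7, -2.93 to -2.71 for IGFBP2, -2.55 to -2.10 for IRS1, -1.36 to -1.04 for IGFBP4, -0.86 to -0.61 for IRS2 and -0.55 to -0.45 for IGF1R. IGFBP3 and IRS2 have no probe set outside those ending in _x_at or _s_at and were not read in that setting. IGF2R was called with a trend and robust prior (-0.22, adjusted p = 0.0494), and turned to 0.21 averaged over its probe sets (adjusted p = 0.137) and to 0.95 when _x_at and _s_at identifiers were left out (adjusted p = 0.000746), a setting that leaves 1569052_at. The pathway count of 38 of 88 became 24 of 67 in that setting, where fewer genes could be tested, and ran from 30 to 35 when 1 array was left out. Over all genes 6300 calls became 6665 with the replicate block, which ended the calls of IGFBPL1, PHLPP2 and NFIC, added that of 243358_at of IGF1R (also called with a trend and robust prior and with dim probe sets left out, adjusted p = 0.046 and 0.0333) and changed no other call of the members or the genes named by rule. Near 0, signs turned without a call: IGF1 read -0.07 with array weights and -0.21 to 0.17 when 1 array was left out, where INSR read -0.04 to 0.22, INS -0.20 to 0.0081 and IGFBP1 -0.13 to 0.08. Leaving out 1 array gave adjusted p-values of 0.0278 to 0.119 for IGFBPL1, 0.0346 to 0.149 for PHLPP2 and 0.0595 to 0.133 for NFIC. IGFBPL1 also missed the threshold with a trend and robust prior (0.0972) and without _x_at and _s_at identifiers (0.0512). In all, PHLPP2 and NFIC were each called in 4 of the 14 settings. NFIX turned to 1.14 averaged over its probe sets (adjusted p = 9.65e-05). Depth does not apply to arrays, and probe sets below the array median limit what could be read for IGFBP1, INS and most IGFBP5 probe sets.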

Other observations

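Neighbours of the members were named after their values were seen. Tensin genes, which encode focal adhesion proteins, stand within 3 protein-coding genes of each binding-protein gene except IGFBP7. TNS3, next to IGFBP3 on chromosome 7, read 8.78, 8.84 and 8.44 in cells labelled transfected, against 10.50, 10.43 and 10.64 in wild type cells (change -1.84, SE 0.12, limma adjusted p = 3.7e-05), while IGFBP1 on the other side of IGFBP3 was below the array median throughout. TNS4 beside IGFBP4, TNS1 near IGFBP5 and TNS2 near IGFBP6 were not called (adjusted p = 1.0, 0.544 and 0.659). RHBDD1, a rhomboid-family protease gene next to IRS1, read 4.23, 5.10 and 4.71 in cells labelled transfected, against 7.22, 7.20 and 7.55 in wild type cells (change -2.64, SE 0.21, limma adjusted p = 8.68e-05). Of 14 measured protein-coding genes directly beside a member, 4 were called lower and none higher, beside 16.9% and 15.0% of all genes. Further out, within 3 protein-coding genes, calls went both ways. MARCHF4, SMARCE1, TTC23 and COL4A2 were called higher there (0.97, 0.22, 0.27 and 0.27). SMARCAL1, ADCY1, HUS1, EIF4B, NOA1, ADGRL3, SYNM, MRPL18 and DOCK10 were called lower there (-1.19 to -0.32). Of the genes near IGFBP7, POLR2B, NOA1 and ADGRL3 were called lower (-0.39, -0.75 and -1.19), while REST and TECRL were not (-0.19 and 0.07). IGFBP7-AS1, antisense to IGFBP7, lay below the array median on all 6 arrays (change -0.09, adjusted p = 0.601). Whether the neighbours' levels bear on those of the members was not tested.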
